A study of Mus musculus with 10 samples.

Results

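The regions described here were promoter-proximal binding sites of the glucocorticoid receptor (GR) that were listed in starved mouse muscle only. They were GR starved peaks whose midpoint lay between 1000 bp upstream and 100 bp downstream of a RefSeq transcription start site (TSS) and that shared no base with a GR fed peak or with a peak of lysine-specific demethylase 1 (LSD1) in fed muscle. Of 37783 GR starved peaks, 5609 lay at promoters, and 1843 of these (32.9%, exact 95% confidence interval (CI) 31.6 to 34.1) met this rule. They were thus chosen by their GR starved, GR fed and LSD1 fed peak calls, and are called starved-only promoter peaks below. The remaining GR starved promoter peaks served for comparison, namely 2439 peaks that shared sequence with a GR fed peak (retained peaks) and 1327 peaks that shared sequence with an LSD1 fed peak and no GR fed peak (fed-LSD1 peaks).

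Chromatin immunoprecipitation sequencing (ChIP-seq) was carried out on nuclear extracts of skeletal muscle from C57BL/6J mice, labelled as 10 weeks old, which were either fed or starved for 24 h. Fed and starved muscle each gave 1 library for GR, LSD1, histone H3 mono- or dimethylated at lysine 9 (H3K9me1 and H3K9me2) and input chromatin, 10 libraries in all. No genotype or treatment other than starvation was labelled. The study's reporting form states a minimum number of mice per condition and that experiments were repeated, but how many animals went into each library used here is not given in the sources used. The text of the study gives another age than the labels. Whole muscle also contains vessels, satellite cells and immune cells, so a peak cannot be assigned to myofibers from these lists. With 1 library per group, no difference could be set against a spread between animals, and no test was made. Sequencing depth is unknown, since reads were not used here. The intervals given cover counting error only, and neighbouring peaks are not independent.

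GR is a nuclear receptor that is activated by glucocorticoids, the hormones that rise during fasting and that drive protein breakdown in muscle. It binds palindromic glucocorticoid response elements (GRE) directly, and it also reaches chromatin through other transcription factors. LSD1 is a flavin-dependent demethylase that acts on H3K4 and H3K9, and H3K9me2 is a mark associated with gene silencing. Many mammalian promoters, in particular those of broadly expressed genes, lie in sequence rich in CpG dinucleotides and GC boxes, the binding elements of SP and KLF factors.

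The data check the name of these sites only in part. A site that is absent from a list of called peaks may still have been bound below the calling limit, so the sites are new to the GR list and are not shown to have gained GR. The rule itself leaned on that limit. Among promoter peaks with a q-value above 0.05, the median fold enrichment over input was 2.66 in GR fed (n = 81) and 2.52 in GR starved (n = 655). Of the starved-only promoter peaks, 862 (46.8%) had a fold enrichment above this GR fed median of 2.66. In the other direction, 2504 of 3154 GR fed promoter peaks (79.4%) shared sequence with a GR starved peak. The part of the calling limit in the number of starved-only peaks was not tested.

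The sequences of 8 starved-only promoter peaks are shown to let the composition of these promoters be read beside their values. The first 4 were among the 20 highest-fold peaks named further on, Fkbp5 and Gabarapl2 belong to glucocorticoid and autophagy lists, Fos was chosen after its values were seen, and Cct6a held the closest match to a GRE. The coordinates on GRCm38 (mm10) are chr8:84893782-84893993 for Gcdh, chr7:144470763-144470920 for Cttn, chr13:33004526-33004715 for Serpinb9, chr19:31765206-31765359 for Prkg1, chr17:28486162-28486431 for Fkbp5, chr8:111939821-111940037 for Gabarapl2, chr12:85473518-85473732 for Fos and chr5:129787300-129787427 for Cct6a. Serpinb9, Gabarapl2, Fos and Cct6a are on the plus strand and the others on the minus strand. Each peak is printed whole, 5′ to 3′ on the strand of its gene, with the reference sequence and the TSS from RefSeq. Capitals mark every match, on either strand, to the 12 motifs searched (given with their shares below), and for the GRE-like site its 2 half-sites.
Gcdh: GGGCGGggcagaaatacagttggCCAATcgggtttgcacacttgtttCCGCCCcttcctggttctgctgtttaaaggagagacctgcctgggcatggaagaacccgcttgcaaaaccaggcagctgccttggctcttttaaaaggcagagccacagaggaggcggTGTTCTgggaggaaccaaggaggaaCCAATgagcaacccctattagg
Cttn: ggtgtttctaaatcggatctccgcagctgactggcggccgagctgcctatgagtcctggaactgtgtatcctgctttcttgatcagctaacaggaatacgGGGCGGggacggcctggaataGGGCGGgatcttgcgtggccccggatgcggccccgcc
Serpinb9: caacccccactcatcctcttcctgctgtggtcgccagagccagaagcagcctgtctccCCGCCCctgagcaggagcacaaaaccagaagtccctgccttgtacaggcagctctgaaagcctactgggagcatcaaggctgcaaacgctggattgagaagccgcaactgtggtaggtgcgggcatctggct
Prkg1: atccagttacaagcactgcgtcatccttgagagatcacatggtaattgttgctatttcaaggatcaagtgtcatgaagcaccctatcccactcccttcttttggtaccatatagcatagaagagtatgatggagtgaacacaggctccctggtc
Fkbp5: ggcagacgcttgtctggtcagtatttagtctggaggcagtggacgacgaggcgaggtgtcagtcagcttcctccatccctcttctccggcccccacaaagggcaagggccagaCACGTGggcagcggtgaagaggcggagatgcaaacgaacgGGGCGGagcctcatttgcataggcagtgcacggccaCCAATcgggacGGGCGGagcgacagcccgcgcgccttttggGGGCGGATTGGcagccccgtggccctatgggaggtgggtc
Gabarapl2: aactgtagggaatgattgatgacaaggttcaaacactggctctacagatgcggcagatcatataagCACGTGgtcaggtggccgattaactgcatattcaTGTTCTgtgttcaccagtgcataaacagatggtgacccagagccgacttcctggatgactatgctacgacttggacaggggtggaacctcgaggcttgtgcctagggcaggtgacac
Fos: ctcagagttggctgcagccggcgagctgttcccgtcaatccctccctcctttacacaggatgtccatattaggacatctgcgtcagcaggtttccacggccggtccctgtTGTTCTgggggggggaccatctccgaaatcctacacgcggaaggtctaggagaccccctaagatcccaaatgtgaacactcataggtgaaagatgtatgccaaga
Cct6a: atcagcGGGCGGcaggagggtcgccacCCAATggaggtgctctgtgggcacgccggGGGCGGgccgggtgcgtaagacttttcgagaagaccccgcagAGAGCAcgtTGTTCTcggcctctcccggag

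These peaks ran from promoters with several GC and CCAAT boxes to sequence without any of the motifs. The Gcdh peak held 2 GC boxes, 2 CCAAT boxes and 1 GR half-site, and the Fkbp5 peak 3 GC boxes, 2 CCAAT boxes and 1 E-box. By contrast, the Prkg1 peak held 0 matches, and the only match in the Fos peak was a GR half-site. The Gabarapl2 peak held 1 E-box and 1 GR half-site, the Cttn peak 2 GC boxes and the Serpinb9 peak 1 GC box. In Cct6a the 15 bases AGAGCAcgtTGTTCT at chr5:129787398-129787412 matched a GRE with 1 mismatch, beside 2 GC boxes and 1 CCAAT box.

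The fold enrichment of the starved-only peaks was low and narrowly spread. These values come from the calls that chose the peaks and are given as a description. The median fold enrichment was 2.65 (quartiles 2.54 and 2.81), the lowest value was 1.55 and the highest 4.48. The medians were 2.69 in fed-LSD1 and 2.82 in retained peaks. The q-value, the false discovery rate that the peak caller assigns to a peak, had a median of 0.0262, and 485 peaks (26.3%) had a q-value of 0.01 or less, against 44.7% of fed-LSD1 and 64.5% of retained peaks. A fold enrichment of at least 3 was reached by 179 starved-only peaks (9.71%), and a q-value of 1e-05 or less by 14. The peaks were also short. Their median length was 286 bp, against 365 bp and 455 bp, and 526 (28.5%) were shorter than 200 bp.

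**Figure D1:**
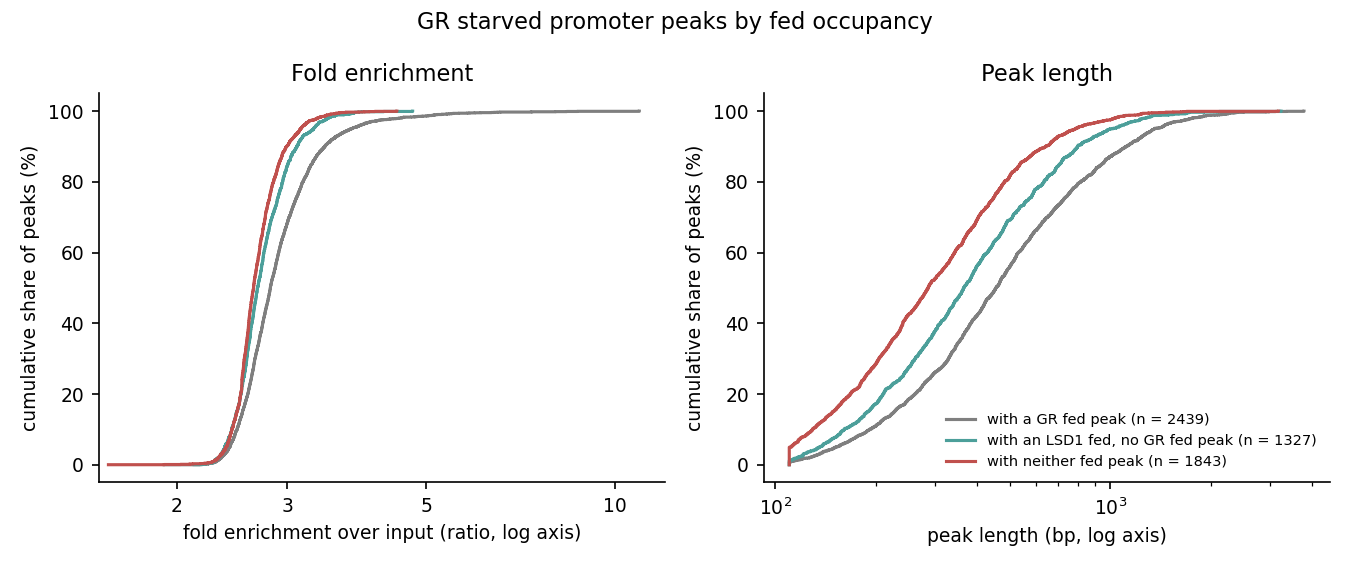
Cumulative share of GR starved promoter peaks (%) by fold enrichment over input (left, log axis) and by peak length in bp (right, log axis), for peaks with a GR fed peak (grey), with an LSD1 fed but no GR fed peak (teal) and with neither (red). The red curves lie leftmost at their medians, 2.65-fold and 286 bp, against 2.82-fold and 455 bp for the grey curves.

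The strongest starved-only peak lay on the shared start region of Pole, the catalytic subunit of DNA polymerase epsilon, and Pxmp2, a peroxisomal membrane channel. Its fold enrichment was 4.48 (q = 6.57e-12), its midpoint was 8 bp downstream of the Pxmp2 TSS in an exon, and the nearest fed peak, of LSD1, was 16.2 kb away. The next outside chromosome 18, from which no peak is named, were 2310022B05Rik (4.05-fold, q = 1.02e-06), Gcdh, which encodes the glutaryl-CoA dehydrogenase of lysine and tryptophan breakdown (3.98-fold, q = 1.91e-06), and Tmcc3, which encodes a membrane protein of the endoplasmic reticulum (3.90-fold, q = 2.83e-08). The values then fell off slowly over the 20 highest peaks outside chromosome 18, down to 3.46-fold at the shared start of Gm15912 and Tppp.

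Several of these 20 promoters belong to genes of the actin and microtubule skeleton, to signalling genes and to proteolysis genes. This sorting was made after the values were seen and was not tested. Cttn (cortactin, a regulator of branched actin) had 3.72-fold, Gsn (the actin-severing protein gelsolin) 3.50-fold, and Tppp (a tubulin polymerization promoter) shared the 3.46-fold peak. Prkg1 (cGMP-dependent protein kinase) had 3.59-fold, with the nearest fed peak 311 kb away, and Rgma (a co-receptor of bone morphogenetic proteins) also had 3.59-fold, but with a GR fed peak 0.07 kb away. These neighbours in rank thus differed widely in their distance to fed binding. Serpinb9 (an inhibitor of granzyme B) had 3.62-fold, Ctso (cathepsin O) 3.52-fold and Usp33 (a deubiquitinase) 3.58-fold. The others were R3hdm2 (3.71-fold), Acoxl (3.65-fold), Gm807 (3.63-fold), Clic1 (a chloride intracellular channel protein, 3.56-fold), A530013C23Rik (3.52-fold), Tpcn2 (a cation channel of endosomes and lysosomes, 3.52-fold), 2310075C17Rik (3.50-fold) and Zc3h13 (a component of the RNA adenosine methylation machinery, 3.47-fold). High fold enrichment went with short length here. Of the 20 peaks, 14 (70.0%) were shorter than 200 bp, and their median length was 156 bp.

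Fos, an immediate early gene that encodes a subunit of AP-1, was named after its values were seen. Its peak had 3.35-fold enrichment (q = 1.16e-06), with the midpoint at -265 bp from the TSS. An LSD1 fed peak was 0.105 kb away and a GR fed peak 0.843 kb away, so the rule admitted the peak although fed binding of both proteins was listed close by.

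Position differed from the comparison peaks in the distal part of the promoter window. The midpoint of the starved-only peaks lay at a median offset of -138 bp from the nearest TSS (upstream negative), against -107 bp for retained and -70 bp for fed-LSD1 peaks. More than 500 bp upstream lay 342 starved-only peaks (18.6%, 95% CI 16.8 to 20.4), against 8.49% (7.41 to 9.66) and 4.82% (3.73 to 6.12). Still, 1195 (64.8%) lay within 250 bp of a TSS. By annotation, 974 midpoints (52.8%) lay outside transcripts, 534 (29.0%) in exons and 335 (18.2%) in introns. The intron share was above that of retained (11.8%) and fed-LSD1 peaks (11.5%). Of the starved-only peaks, 158 (8.57%) lay in promoter windows of genes on both strands, against 13.9% and 12.4%.

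**Figure D2:**
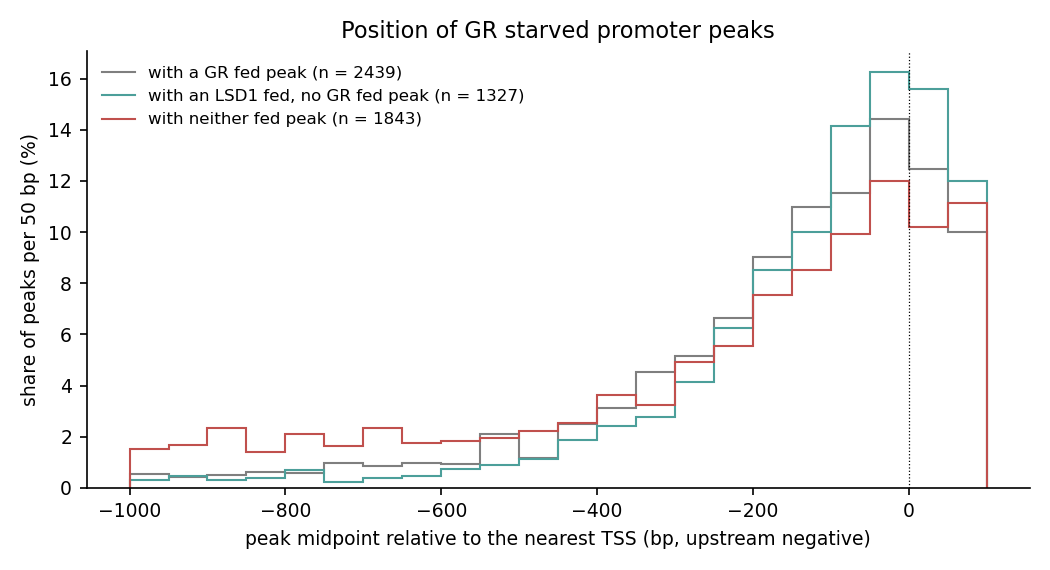
Share of GR starved promoter peaks (%) per 50 bp of distance between the peak midpoint and the nearest TSS (bp, upstream negative), for retained (grey), fed-LSD1 (teal) and starved-only peaks (red). The red curve is the lowest just upstream of the TSS and the highest over the distal part of the window, where 18.6% of its peaks lie more than 500 bp upstream.

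The sites were not all far from fed binding. Of the starved-only peaks, 139 (7.54%) lay less than 100 bp from a fed peak, 450 (24.4%) less than 1 kb, 702 (38.1%) less than 5 kb and 1324 (71.8%) less than 30 kb. Within 1 kb the neighbour was an LSD1 fed peak for 377 peaks and a GR fed peak for 162, some having both. At the edge of the rule, the peak at Ptpn9 (2.83-fold) touched a fed peak with a gap of 0 bases and was included, and those at Abcd2 (2.59-fold) and Rab29 (2.88-fold) had a gap of 1 base. The peaks at Rps25 (2.61-fold) and Smpd3 (2.92-fold) shared 1 base with a fed peak and were not included. At the borders of the window, Ddx49 (midpoint at -999 bp, 2.54-fold) and Ifitm10 (at 100 bp, 2.56-fold) were inside, whereas P2ry12 (at -1004 bp, 2.56-fold) and Dmap1 (at 101 bp, 2.53-fold) were outside. Requiring a distance of at least 1 kb to every fed peak left 1393 peaks.

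The first comparison that the rule did not use asked whether LSD1 was listed at these promoters once the mice were starved. LSD1 starved peaks overlapped 294 of the 1843 starved-only peaks (16.0%, 95% CI 14.3 to 17.7), against 36.2% of all GR starved promoter peaks. These shares hold for the LSD1 starved list as deposited, which has 66332 peaks and is longer than the LSD1 fed list of 16616 peaks. The text of the study gives the opposite direction, with only a small part of the LSD1 peaks left after starvation. The deposited list is therefore another list than the one described there, and the LSD1 starved shares given here may not hold for that one. The share was 40.8% (38.2 to 43.5) for fed-LSD1 and 49% (47.0 to 51.0) for retained peaks. It was higher than for the 23630 GR starved peaks outside promoters that also had no fed peak, of which 6.09% (5.79 to 6.41) were overlapped. Among the 3 sets of GR starved promoter peaks the starved-only set thus had the lowest share. It was chosen for having no LSD1 fed peak, so a low share for the same protein in starved muscle is in part set by the rule.

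The low share of the starved-only peaks held within tertiles of length, fold enrichment and GC content, each taken singly. The order of the other 2 sets did not hold among the shortest peaks. Tertiles are wide, and peaks of the same tertile may still differ, so these traits were not held equal between the sets. Within the tertile of shortest peaks, 11.4% of the starved-only peaks were overlapped by LSD1 starved, against 32.4% and 33.7% of the retained and fed-LSD1 ones. Within the tertile of highest fold enrichment the shares were 20.0%, 56.5% and 46.1%, and within the tertile of highest GC content 26.6%, 58.2% and 48.9%. The starved-only share was the lowest in each of the 9 tertiles of length, fold enrichment and GC content. With 300 bases around the midpoint in place of the peak, an alternative chosen after seeing the data, the shares were 14.8%, 41.1% and 36.2%. Few overlaps rested on strongly called LSD1 peaks, since with LSD1 starved peaks at a q-value of 0.01 or less the shares dropped to 2.28%, 11.3% and 8.36%.

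The second comparison concerned H3K9me2, a substrate of LSD1, in fed muscle. H3K9me2 fed peaks overlapped 394 starved-only peaks (21.4%, 95% CI 19.5 to 23.3), against 33.0% of all GR starved promoter peaks. The shares were 34.9% (32.3 to 37.5) for fed-LSD1 peaks, 40.8% (38.8 to 42.8) for retained peaks and 7.38% (7.05 to 7.72) for the starved-only GR peaks outside promoters. The starved-only share was again the lowest at promoters in each tertile of length, fold enrichment and GC content, ranging from 17.1% among the shortest to 32.6% among the longest peaks. With H3K9me2 fed peaks at a q-value of 0.01 or less it was 4.94%, against 9.50% and 10.5%.

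H3K9me1 was rarely listed. H3K9me1 fed peaks overlapped 39 starved-only peaks (2.12%), against 3.28% of all GR starved promoter peaks, and H3K9me1 starved peaks overlapped 49 (2.66%), against 3.62%. H3K9me2 starved peaks overlapped 9 (0.488%), against 0.196%, which left 2 for all other GR starved promoter peaks together. The histone lists differed widely in length. H3K9me2 had 171402 fed and 6624 starved peaks, and H3K9me1 had 14178 fed and 38023 starved peaks. The shares of different lists are therefore not set against each other. In all, 1201 starved-only peaks (65.2%) were overlapped by no peak of the 5 lists that the rule did not use. Every library carried its own code, so that for GR, LSD1 and both histone marks the condition and the library cannot be told apart.

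**Figure D3:**
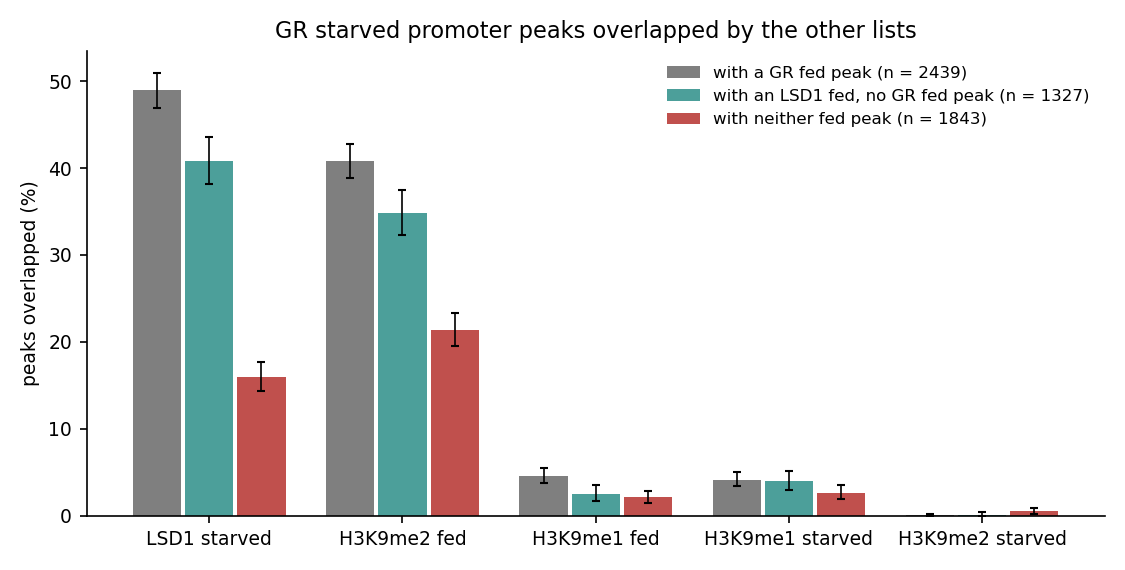
Share (%) of retained (grey), fed-LSD1 (teal) and starved-only (red) GR starved promoter peaks that were overlapped by a peak of each list the rule did not use. Bars show shares and whiskers exact 95% intervals. The red bars are the lowest for LSD1 starved (16.0%) and H3K9me2 fed (21.4%).

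The 9 starved-only peaks with H3K9me2 starved peaks were a group apart. They lay at 4931408C20Rik, Sp110, Sfi1, Wdr74, Gm10354, Gm21190, Gm21083, Speer4cos and Speer4f1, names given after their values were seen. Of the 9, 5 lay on chromosome 5 between 14.978 and 17.476 Mb, in a region of Speer genes and related gene models, which form a family of near-identical copies. LSD1 starved peaks overlapped 7 of the 9 and H3K9me1 starved peaks 5. The Sfi1 peak was 3177 bp long with the lowest fold enrichment of all starved-only peaks, 1.55. Reads from near-identical copies cannot be placed with certainty, so the values of the 5 peaks on chromosome 5 are uncertain.

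LSD1 starved and H3K9me2 fed were listed together at 97 starved-only peaks (5.26%), LSD1 starved alone at 197 and H3K9me2 fed alone at 297. H3K9me2 fed was present at 33.0% (95% CI 27.6 to 38.7) of the peaks with LSD1 starved and at 19.2% (17.2 to 21.2) of those without. Peaks with either list were longer, with a median of 345 bp with and 275 bp without LSD1 starved, and longer peaks have more room for an overlap. The highest-fold peaks with both outside chromosome 18 were those at Pxmp2 and 2310022B05Rik, followed by Haus6, a subunit of the microtubule-nucleating augmin complex (3.39-fold), Cpeb1, a cytoplasmic polyadenylation factor (3.35-fold), and Sh2b1, an adaptor of insulin and leptin receptor signalling (3.34-fold). At the Pxmp2 peak, LSD1 starved had 3.21-fold enrichment (q = 0.0554) and H3K9me2 fed 3.16-fold (q = 0.0252). The LSD1 starved q-values at these 5 promoters ran from 0.0483 at Haus6 to 0.0720 at Sh2b1, so none of them passed a limit of 0.01.

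Base composition split the starved-only promoters almost evenly. In the 300 bases around the midpoint, 984 (53.4%, 95% CI 51.1 to 55.7) were CpG-rich, defined as a GC content of at least 50% with an observed-to-expected CpG ratio of at least 0.6. The share was 83.9% for fed-LSD1, 75.7% for retained and 4.30% for starved-only GR peaks outside promoters. It was 41.3% over the 31603 RefSeq promoters in the table used here, each reaching from 250 bases before to 50 after a TSS. The median GC content of the starved-only peaks was 59.7%, against 65.0%, 63.7% and 55.7% for fed-LSD1 peaks, retained peaks and all promoters.

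CpG-rich and CpG-poor sites differed in position and in the other lists. The CpG-rich sites lay at a median offset of -65 bp and the 859 CpG-poor sites at -291 bp. LSD1 starved overlapped 20.8% (95% CI 18.3 to 23.5) of the CpG-rich and 10.4% (8.40 to 12.6) of the CpG-poor sites. H3K9me2 fed overlapped 25.2% (22.5 to 28.0) and 17% (14.5 to 19.7). The median fold enrichment was 2.64 and 2.66, so the 2 kinds were close in median strength. Within CpG-rich promoters alone the starved-only share with LSD1 starved (20.8%) remained below that of fed-LSD1 (42.6%) and retained peaks (52.1%), and within CpG-poor promoters it was 10.4% against 31.8% and 39.2%. Sites over 500 bp upstream carried the fewest overlaps, with 5.85% for LSD1 starved and 12.9% for H3K9me2 fed, and only 18.1% of them were CpG-rich.

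**Figure D4:**
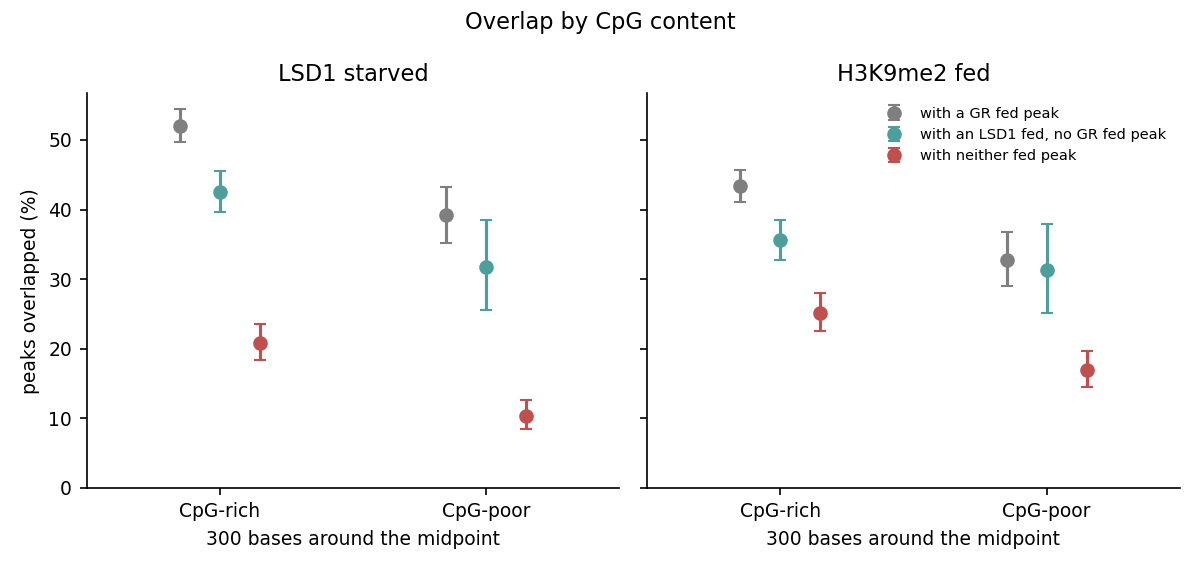
Share (%) of GR starved promoter peaks overlapped by LSD1 starved (left) and H3K9me2 fed peaks (right), split by CpG content of the 300 bases around the midpoint. Points show shares and whiskers exact 95% intervals. The starved-only peaks (red) lie below retained (grey) and fed-LSD1 peaks (teal) in both kinds of promoter, from 10.4% to 25.2%.

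The GC box followed the base composition, and the CCAAT box did not. Motifs were searched on both strands in the 300 bases around each midpoint. The GC box (GGGCGG) was present in 51.3% of the starved-only sites, against 69.9% of fed-LSD1 and 68.6% of retained sites and 43.2% of all RefSeq promoters of the same length. In CpG-rich sites it was present in 71.0% and in CpG-poor sites in 28.6%. The GC box consists of G and C and holds a CpG, so this difference is in part set by the split. The ETS motif (CCGGAAG) was present in 12.6% of the starved-only sites, with 10.4% in all promoters, and the CCAAT box (CCAAT) in 35.3%, with 37.3% in all promoters. The CCAAT box was present in 34.6% of CpG-rich and 36.2% of CpG-poor starved-only sites. The shares of the E-box (CACGTG) were 10.1% and 7.67%, those of the YY1 motif (ATGGCGGC) 3.53% and 2.70%, and those of the cAMP response element (TGACGTCA) 2.28% and 2.21%.

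The AP-1, FoxO, TATA box and GR half-site motifs did not exceed the level of all promoters by more than counting error. AP-1 (TGANTCA) was present in 7.22% of the starved-only sites and 7.21% of all promoters, although in only 3.84% of fed-LSD1 and 4.39% of retained sites. Of the CpG-poor starved-only sites 12.3% held it, and of the CpG-rich ones 2.74%. The FoxO motif (GTAAACA) was present in 2.44% against 3.09%, the TATA box (TATAAA) in 4.72% against 12.3%, and the GR half-site (AGAACA) in 13.5% against 17%. None of these motifs contains another, except that the half-site is part of the GRE.

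A GRE was almost absent from these letters. It was defined as AGAACA and TGTTCT separated by any 3 bases, and 1 of the 1843 whole peaks (0.0543%) held it with at most 1 mismatch, against 0.492% of retained and 0.151% of fed-LSD1 peaks, which are longer. The peak with this site lay at the start of Cct6a, a subunit of the cytosolic chaperonin, and Psph, the last enzyme of serine synthesis. Its fold enrichment was 2.35 (q = 0.0330), so that the site with the closest GRE was among the weaker peaks. Without a mismatch there were 0 of 1843 (95% CI 0 to 0.200%), and with 2 mismatches there were 19. In windows of 300 bases, at most 1 mismatch was found in 0.0543% of starved-only, 0.0820% of retained and 0.0754% of fed-LSD1 sites. These are counts of 1, 2 and 1, too few to be set against each other. Over all promoters the share was 0.139%, within the starved-only interval (95% CI 0.00137 to 0.302%). The motif of nuclear respiratory factor 1 (NRF1, GCGC on either side of AT) was present in 22 starved-only peaks (1.19%). It was present in 2.83% of retained and 3.01% of fed-LSD1 peaks, which are longer. In windows of 300 bases it was present in 1.19% of starved-only, 1.97% of retained and 2.49% of fed-LSD1 sites, and in 1.09% of all promoters. Among CpG-rich sites alone the shares were 2.03% (95% CI 1.25 to 3.12), 2.49% (1.83 to 3.31) and 2.88% (1.97 to 4.03), with intervals that overlap.

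At the level of genes, 1987 of 26180 annotated genes (7.59%) had a starved-only peak in their promoter window. For 1864 of them it was the only kind of GR starved promoter peak. A GR fed promoter peak was also present at 141 of the 1987 genes and an LSD1 fed promoter peak at 310, whereas 1627 (81.9%) had neither. In most cases 1 peak fell in the window of 1 gene (1669 peaks), and 33 genes had 2 starved-only peaks. The share of starved-only peaks among GR starved promoter peaks ranged from 24.9% on chromosome 1 to 37.2% on chromosome 13 among the autosomes, and was 18 of 34 (52.9%) on the X chromosome.

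Of 25 classic GR targets, 19 had a GR starved promoter peak. At 18 of them a peak was retained from fed muscle, and 2 (8%, 95% CI 0.984 to 26.0) had a starved-only peak, close to the 7.59% of all genes. These were Gadd45a, a growth arrest gene induced in muscle wasting (3.21-fold, q = 0.000454, midpoint at -857 bp), which also had a retained peak, and Fkbp5, which encodes a co-chaperone that restrains GR (2.34-fold, q = 0.0570). Retained peaks lay at Tsc22d3, Per1, Zbtb16, Pdk4 and Cdkn1a, among others. Of the 10 genes that the study used as examples, 8 (among them Ddit4, Trim63, Fbxo32 and Fbxo31) had a retained peak and 0 a starved-only peak, and Pik3r1 and Pax7 had no GR starved promoter peak. Of 19 genes of the circadian clock, 15 had a retained peak and 0 a starved-only peak (95% CI 0 to 17.6%), an interval that includes the 7.59% of all genes. Among the 6092 genes with any GR starved promoter peak, 32.6% had a starved-only peak. On this base the share was 10.5% for the 19 classic targets and 0% for 16 clock genes. These lists are small, and the difference was not tested.

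Starved-only peaks lay at a minority of the genes of protein breakdown. Of 28 genes of the ubiquitin system linked to muscle atrophy, 5 (17.9%, 95% CI 6.06 to 36.9) had a starved-only peak, among them the ligases Smurf1 (3.02-fold), Mdm2 (2.79-fold) and Traf6 and the deubiquitinase Usp19 (2.67-fold), and 18 had a retained peak. Of 39 proteasome subunits, 5 (12.8%) had one, among them the core subunit Psma5 (3.09-fold), the immunoproteasome subunit Psmb8 (3.00-fold) and the regulatory subunits Psmd3 (2.61-fold) and Psmd11 (2.54-fold). LSD1 starved was listed at the peaks of Psma5, Psmd3 and Psmd11 and H3K9me2 fed at those of Psma5, Psmb8 and Psmd11. The fifth, the peak of the core subunit Psma2 (2.46-fold), was named after its values were seen and held neither. Over all starved-only peaks these lists were present at 16.0% and 21.4%, and 5 peaks are too few to be set against these shares.

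In the autophagy and lysosome lists, 3 of 39 (7.69%) and 4 of 38 genes (10.5%) had a starved-only peak. Gabarapl2, which encodes an ATG8 protein of the autophagosome membrane, had 3.39-fold enrichment (q = 0.000202) with the midpoint at -774 bp, Ulk1, the kinase that starts autophagy, had 2.96-fold (q = 0.000179), and Atg12, a ubiquitin-like conjugate, had 2.34-fold (q = 0.0730). H3K9me2 fed (21.4% of all starved-only peaks) was listed at these 3, and LSD1 starved (16.0%) at Ulk1, which rests on 3 peaks. The lysosomal genes were the proton pump subunits Atp6v1f (2.76-fold, 0.004 kb from an LSD1 fed peak), Atp6v1b2 (2.60-fold) and Atp6v0c (2.40-fold) and the calcium channel Mcoln1 (2.48-fold).

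The ribosomal and respiratory lists lay near the 7.59% of all annotated genes. The shares were 7 of 81 cytosolic ribosomal proteins (8.64%), 9 of 78 mitochondrial ribosomal proteins (11.5%) and 8 of 81 respiratory chain subunits (9.88%). Among genes with any GR starved promoter peak they were 18.4%, 25% and 22.2% in the same order. Over all such genes the share was 32.6%, and the difference was not tested. Cytosolic examples were Rpl41 (3.16-fold), Rps19 (2.91-fold), Rpl11 (2.68-fold) and Rpl28 (2.60-fold), and mitochondrial ones Mrps18a (2.98-fold), Mrps5 (2.82-fold), Mrpl10 (2.81-fold) and Mrpl18 (2.79-fold). Respiratory examples were Uqcr11 of complex III (2.78-fold), the complex I subunits Ndufc1 (2.68-fold) and Ndufa5 (2.61-fold) and the ATP synthase subunit Atp5d (2.66-fold). Aminoacyl-tRNA synthetases, which load amino acids onto tRNAs, had the highest share of the lists, 8 of 37 (21.6%, 95% CI 9.83 to 38.2), with 6 at a retained peak. The highest were Kars (2.89-fold), Farsa (2.77-fold), Lars2 (2.64-fold) and Tars2 (2.63-fold).

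Among the regulators of chromatin and transcription, 6 of 37 genes of H3K9 methylation and LSD1 complexes (16.2%) had a starved-only peak. They included the methyltransferase gene Prdm2 (2.87-fold), the heterochromatin protein gene Cbx3 (2.81-fold, 0.181 kb from a GR fed peak), the LSD1 complex subunit gene Phf21a (2.77-fold) and the demethylase gene Phf8 (2.72-fold). RNA polymerase and Mediator subunits had 10 of 58 (17.2%), led by Polr2e (2.94-fold), Med12 (2.83-fold), Med28 (2.76-fold) and Med15 (2.64-fold), and splicing factors 9 of 80 (11.3%), led by Prpf8 (3.24-fold), Prpf40b (3.02-fold), Snrpa (2.79-fold) and Snrpf (2.76-fold). The Zfp zinc finger genes had 34 of 395 (8.61%), led by Zfp961 (3.28-fold), Zfp790 (3.14-fold), Zfp786 (3.14-fold) and Zfp53 (2.92-fold).

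Genes of fuel use and growth signalling were represented in each list. Of 32 genes of glycolysis and glycogen, 5 (15.6%) had a starved-only peak. Pfkfb3, whose product makes the activator of phosphofructokinase, had 3.38-fold enrichment at a 674 bp peak (q = 1.00e-07) with an LSD1 starved peak, an LSD1 fed peak at 0.122 kb and a GR fed peak at 0.726 kb. Pgam1 had 2.95-fold, Aldoa 2.57-fold and Tpi1 2.51-fold. Of 30 genes of fatty acid oxidation, 5 (16.7%) had one, among them the dehydrogenase Acads (2.84-fold), the fasting regulator Ppara (2.67-fold), the fatty acid transporter Cd36 (2.65-fold) and the carnitine carrier Slc25a20 (2.54-fold).

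In the insulin, IGF1 and mTORC1 list, 7 of 37 genes (18.9%, 95% CI 7.96 to 35.2) had a starved-only peak and 16 a retained peak. They covered a ligand, Igf1 (2.75-fold, nearest fed peak 120 kb away), the receptor gene Insr, the kinases Akt1 (2.87-fold), Akt2, Rps6kb1 (3.09-fold, 0.166 kb from a GR fed peak) and Rps6kb2, and Sesn2, an amino acid sensor that inhibits mTORC1 (2.68-fold). The shares of all lists are descriptions beside 7.59% of all genes. Most annotated genes had no GR starved promoter peak, and among those that had one the starved-only share was 32.6%. On this base the insulin, IGF1 and mTORC1 list had 30.4%, and RNA polymerase and Mediator subunits had 29.4%. The ubiquitin list had 22.7%, the H3K9 methylation list 33.3% and aminoacyl-tRNA synthetases 47.1%.

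**Figure D5:**
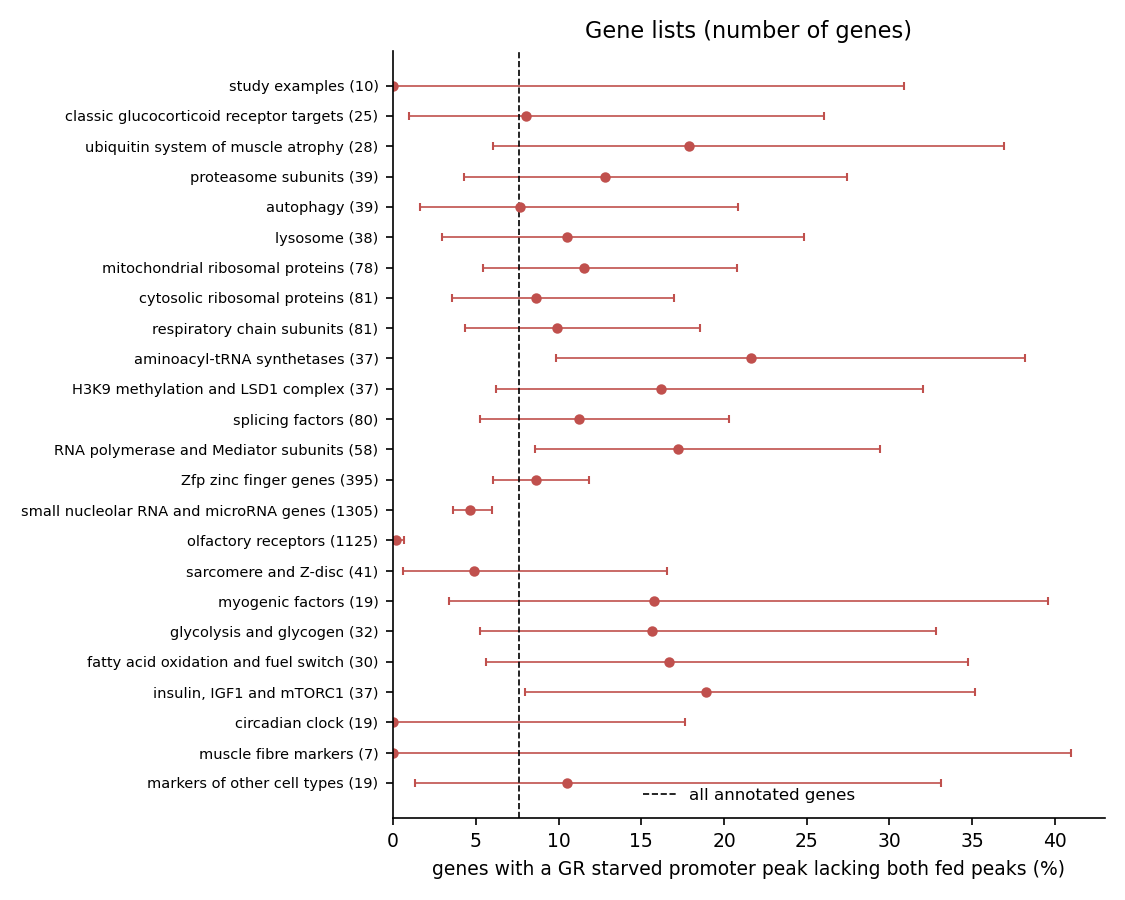
Share (%) of the genes of each list with a starved-only GR promoter peak, with the number of genes in parentheses. Points show shares, whiskers exact 95% intervals and the dashed line all annotated genes (7.59%). Aminoacyl-tRNA synthetases lie highest (21.6%) and olfactory receptors, with 2 of 1125 genes, at 0.178%.

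For the lists of muscle identity the intervals of the share with a starved-only peak were wide and included the 7.59% of all genes. Of 41 sarcomere and Z-disc genes, 2 (4.88%, 95% CI 0.596 to 16.5) had one, among them Cryab, a small heat shock protein of the Z-disc (2.61-fold), against 14 with a retained peak. Of 7 muscle fibre markers, 0 had one (95% CI 0 to 41.0%), whereas Acta1, Ckm and Mb had a retained peak. Of 19 myogenic factors, 3 (15.8%, 95% CI 3.38 to 39.6) had one, namely Myf5 (2.84-fold), Six2 (2.78-fold) and Eya4 (2.76-fold). Among genes with any GR starved promoter peak the shares were 12.5% of 16 sarcomere and Z-disc genes and 37.5% of 8 myogenic factors. Over all such genes the share was 32.6%, and these differences were not tested. Of 19 markers of other cell types, 2 had a GR starved promoter peak, and both were starved-only. They were Myf5, a marker of satellite cells, and Tek, the endothelial receptor of angiopoietins (2.62-fold, q = 0.0505). A part of other cell types in these peaks was not tested.

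Among small nucleolar RNA and microRNA genes, 61 of 1305 (4.67%) had a starved-only peak. RefSeq places the start of a microRNA gene at its hairpin, so these windows need not hold the promoter of the primary transcript. Mir8102 had 3.42-fold, Mir761 3.15-fold, Mir8116 3.13-fold and Mir1a-1, the gene of a muscle-enriched microRNA, 3.02-fold at a peak of 806 bp. Of the olfactory receptor genes, Olfr279 (3.09-fold) and Olfr412 (2.71-fold) had a peak, and the Olfr279 peak consisted wholly (100%) of sequence masked as repeats. Repeat sequence made up at least 50% of 55 starved-only peaks (2.98%), against 0.0410% of retained and 0.452% of fed-LSD1 peaks, which are longer. The placement of reads in repeat sequence is less certain.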

How the data were processed

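The authors ran MACS2 in broad mode on each library, with input as control, after single-end reads with 1 location had been mapped to mm10 (GRCm38). The methods name Bowtie, whereas the peak names carry Bowtie2, and demultiplexing used bcl2fastq 2.20.0.422 per the submitters' processing notes. The 8 deposited lists hold the fold over input as a ratio, together with −log10 p-values and q-values. The deposited score was not used. The methods state a false discovery rate of 0.01, whereas the starved-only peaks reach q-values of 0.0953. The LSD1 starved list (66332 peaks) was used as deposited, although the study's text gives another number.

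Midpoints were compared with 45756 curated RefSeq transcripts, and overlap meant 1 base or more. Shares carry exact Clopper-Pearson 95% intervals. Overlap functions were tested on simulated intervals. Python 3.11.15, pandas 2.3.3, NumPy 2.4.6 and SciPy 1.17.1 were used.

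Members and gene lists were chosen with earlier results of these data known. Named were the 20 highest-fold members outside chromosome 18, up to 4 per list, the study's examples, the 5 highest with LSD1 starved and H3K9me2 fed, and members with a GRE, although some items under this rule are not reported here. Of 25 lists, that of replication-dependent histones matched 0 gene symbols. The alternatives were stricter thresholds, shorter lists, other windows, overlaps and annotations, and other mismatch numbers.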

Additional observations from a re-analysis of the deposited data

How the results depend on the processing

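No paired analysis was possible because each group had 1 library. Of 61 alternative values, 26 stayed within the interval of the reported value or, for counts, within 1.5 times, and 35 moved. Limiting GR starved to q-values up to 0.01 gave 485 starved-only peaks at 537 genes (18.3% of promoter peaks, median fold enrichment 2.94), and LSD1 starved overlapped 22.7% and H3K9me2 fed 26.2%. For a minimum fold enrichment of 3 the values were 179, 15.6%, 3.16, 21.2% and 26.8%. With the GR starved list cut by fold enrichment to the 14108 peaks of GR fed they were 489, 21.6%, 2.93, 19.8% and 24.5%. These settings test fewer GR starved peaks. When fed peaks counted only up to a q-value of 0.01, there were 3089 starved-only peaks (55.1%, median 2.66), with 25.3% and 27.2% overlapped. A window to 1 kb downstream gave 2911 peaks (37.7%), with 13.7% and 19%. Requiring 50% of the shorter peak to be shared gave 38.0%, with 14% and 17.1%. The share of promoter peaks was 24.8% at 1 kb or more from fed peaks and 31.6% with NM transcripts only. With stricter LSD1 starved or H3K9me2 fed lists (q-values up to 0.01) the overlapped shares were 2.28% and 4.94%. The share holding a GRE was 0% without mismatch and 1.03% with 2 mismatches, and the NRF1 share was 9.01% with 1 mismatch. The share that lacks fed peaks thus ranged from 15.6% to 55.1% of promoter peaks with the thresholds of the lists. Unknown depth limits every statement on an absent peak.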

Other observations

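Starved-only peaks whose nearest transcript was noncoding were less often CpG-rich than those at messenger RNA starts. There were 212 of the former and 1631 of the latter. Of the noncoding ones 32.1% (95% CI 25.8 to 38.8) were CpG-rich, against 56.2% (53.7 to 58.6), and the median offset was -232 bp against -129 bp. LSD1 starved overlapped 10.4% (6.62 to 15.3) and 16.7% (14.9 to 18.6), with intervals that overlap, and H3K9me2 fed 14.2% (9.76 to 19.6) and 22.3% (20.3 to 24.4).

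The overlap shares of starved-only peaks near to and far from fed peaks lay within the counting error of each other. LSD1 starved overlapped 16.9% (95% CI 13.5 to 20.7) of the 450 peaks within 1 kb of a fed peak, 16.1% (13.8 to 18.7) of the 874 at 1 to 30 kb and 14.8% (11.9 to 18.2) of the 519 at 30 kb or more. For H3K9me2 fed the shares were 22.7%, 20.8% and 21.2%. The median fold enrichment was 2.64, 2.65 and 2.65.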
